A study of Mus musculus with 15 samples.

Results

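The 39 Hox cluster genes were followed across mouse gut tissue and organoids grown from mouse gut. They are the genes whose symbol in the deposited gene tables is Hox followed by a cluster letter (a, b, c or d) and a paralogue number, and they are 39 of the 45905 genes listed. Cluster A holds 11 of them on chromosome 6, cluster B 10 on chromosome 11, cluster C 9 on chromosome 15 and cluster D 9 on chromosome 2. Hox genes encode homeodomain transcription factors. Within a cluster they lie in the order of their paralogue numbers, and along the body axis low numbers come on further forward and high numbers further back, so that the set of Hox genes a tissue expresses serves as a readout of its position. In the gut this holds for the muscular and connective tissue wall as well as for the epithelium, in which Cdx transcription factors act upstream of Hox genes.

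Poly(A) RNA was sequenced from 15 libraries in 5 groups of 3. Organoids described as Tamoxifen (code T41) have titles that name a Jup gene flanked by loxP sites (JUPfl/fl) with a tamoxifen-inducible Cre under the villin promoter (iVilCre ERT2), which acts in intestinal epithelium. Organoids described as DMSO (a solvent) and as nativ both carry the code T75 and are titled JUPfl/fl with no Cre. Code, Cre and treatment therefore changed together between Tamoxifen organoids and the other organoids and cannot be told apart. Each organoid group carries 1 code, and the labels do not say whether its 3 libraries came from separate cultures, so p-values measure the spread between these libraries, which may be technical. Gut tissue was described as ctr and as PG_KO, each library with a code of its own. The gut titles conflict with those descriptions, since they give iVilCre ERT2 JUPfl/fl for ctr and a dextran sodium sulfate (DSS) colitis with JUPfl/fl for PG_KO. Genotype, Cre and DSS colitis may therefore differ together between the gut groups and cannot be told apart. Neither the segment of gut that was sampled nor the one that the organoids came from is given, nor are the animals' ages. In bulk RNA, fewer cells of a type and less RNA per cell cannot be told apart.

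Jup, which encodes plakoglobin, stood at 69.0 to 71.2 reads scaled to the library total (CPM) in Tamoxifen organoids, 360 to 414 CPM in DMSO organoids and 275 to 395 CPM in nativ organoids. In gut it stood at 302 to 495 CPM in libraries described as ctr and at 75.2 to 82.8 CPM in those described as PG_KO, which follows the descriptions and goes against the titles. That gut difference had an adjusted p of 0.163 in edgeR's quasi-likelihood test and of 2.29e-12 in DESeq2. Library totals ran from 25185053 to 30744563 reads in organoids and from 23194385 to 29257641 in gut, so that 3 reads in a library were worth 0.0976 to 0.129 CPM; such floors cover counting error only.

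Of the 39 members, 28 reached a mean of 1 CPM in at least 1 group, and 5 (Hoxb1, Hoxc8, Hoxc11, Hoxc12 and Hoxd1) had no read in any of the 15 libraries. In gut, 29 members had more than 3 reads in every library, up to paralogue 13. Tamoxifen organoids had 14 such members, all 14 of them among the 29 of gut, and these ended at Hoxa5 in cluster A, at Hoxb9 in cluster B and at Hoxd4 in cluster D. DMSO and nativ organoids had none: no member exceeded 3 reads in any of the 6 libraries. Summed over the members, the level was 44.5 ± 2.95 CPM (SD, n = 3) in Tamoxifen organoids, 0.195 ± 0.0719 in DMSO, 0.218 ± 0.158 in nativ, 618 ± 82.1 in ctr gut and 613 ± 183 in PG_KO gut. Organoid and gut reads were deposited in separate tables, and their levels are set side by side without a test.

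**Figure D1:**
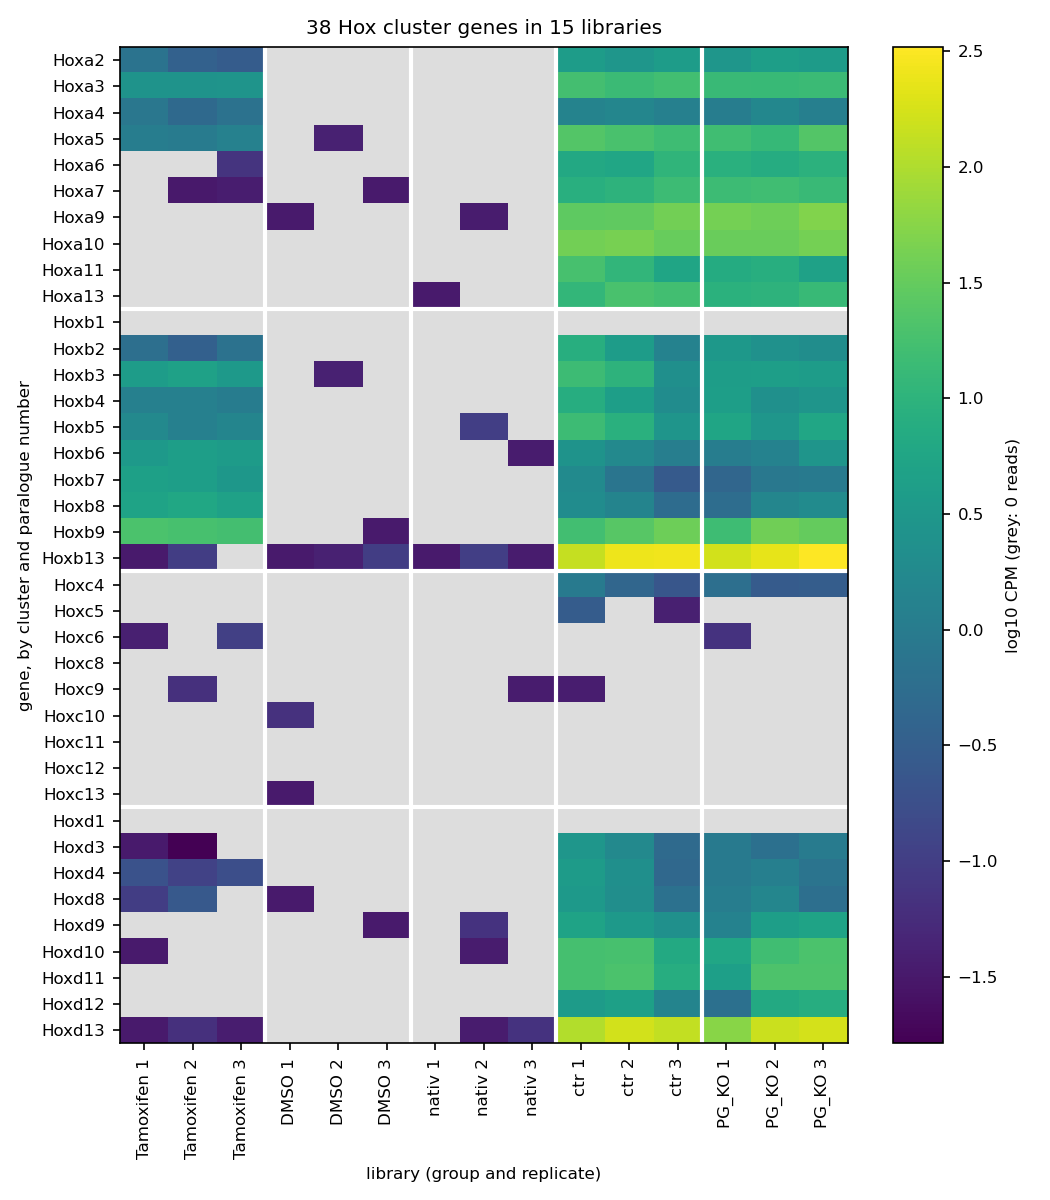
Level of 38 of the 39 Hox cluster genes (rows, by cluster and paralogue number) in each of the 15 libraries (columns, by group), as log10 CPM, with grey for 0 reads. Gut libraries are filled from low to high paralogue numbers in clusters A, B and D, apart from Hoxb1 and Hoxd1, which have 0 reads. Tamoxifen organoids are filled up to Hoxa5 and Hoxb9, again apart from Hoxb1. DMSO and nativ organoids show only cells of at most 3 reads, scattered except for Hoxb13, which has a read in all 6 libraries.

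The edge of expression in cluster A of Tamoxifen organoids fell between the neighbours Hoxa5 and Hoxa6, whose annotated starts lie on the same strand. RefSeq promoter sequences (GRCm38.p6) were at hand for 22 of the 39 members, in 24 windows. The 250 bases before the start are given for 4 members with different patterns: Hoxa5 (chr6:52204588-52204837, minus strand), detected in Tamoxifen organoids and gut; Hoxa6 (chr6:52208673-52208922, minus strand), detected in gut; Hoxb8 (chr11:96281655-96281904, plus strand), with more CPM in Tamoxifen organoids than in gut; and Hoxd13 (chr2:74667975-74668224, plus strand), among the highest in gut. The Hoxb8 window precedes a start inside the gene, whose deposited coordinates begin at 96279401. The windows of Hoxa5, Hoxa6 and Hoxd13 adjoin the deposited start of their gene. Capitals mark CG dinucleotides, the sites of DNA methylation.
Hoxa5: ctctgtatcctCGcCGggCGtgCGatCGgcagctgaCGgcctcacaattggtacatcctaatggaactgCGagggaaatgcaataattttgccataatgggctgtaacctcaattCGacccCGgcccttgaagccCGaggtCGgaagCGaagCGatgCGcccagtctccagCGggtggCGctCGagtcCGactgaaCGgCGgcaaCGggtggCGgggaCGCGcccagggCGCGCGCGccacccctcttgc
Hoxa6: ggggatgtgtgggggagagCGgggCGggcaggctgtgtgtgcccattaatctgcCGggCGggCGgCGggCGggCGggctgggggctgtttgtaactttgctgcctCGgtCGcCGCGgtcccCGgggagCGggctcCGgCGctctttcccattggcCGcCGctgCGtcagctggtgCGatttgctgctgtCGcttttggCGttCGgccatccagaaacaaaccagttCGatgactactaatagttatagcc
Hoxb8: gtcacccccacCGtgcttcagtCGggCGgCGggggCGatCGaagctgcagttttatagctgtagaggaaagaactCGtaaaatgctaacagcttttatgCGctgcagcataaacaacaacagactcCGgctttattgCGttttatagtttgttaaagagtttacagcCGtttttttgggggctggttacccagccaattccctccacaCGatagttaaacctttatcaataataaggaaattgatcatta
Hoxd13: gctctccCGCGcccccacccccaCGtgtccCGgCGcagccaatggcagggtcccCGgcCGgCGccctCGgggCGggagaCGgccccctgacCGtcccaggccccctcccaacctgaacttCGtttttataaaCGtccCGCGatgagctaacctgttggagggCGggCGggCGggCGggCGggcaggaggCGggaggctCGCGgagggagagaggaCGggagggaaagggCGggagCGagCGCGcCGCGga
Both neighbours at the edge were rich in CG, with 28 in the Hoxa5 window and 24 in the Hoxa6 window, against 12 for Hoxb8 and 31 for Hoxd13. The 24 Hox windows held 2 to 35, with a median of 12.5, and the 32851 windows of all genes had a median of 6. The motif TTTATNG, which Cdx factors bind, was searched on both strands and occurred in 2 Hox windows (8.33%), those of Hoxb8 and Hoxd4, against 9.81% of all windows. TATAAA, the TATA box, occurred on either strand in 4 Hox windows (16.7%) and in 12.4% of all windows, and a match of one motif may overlap a match of the other. A match describes these letters only.

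Tamoxifen organoids expressed the low and middle part of clusters A and B. In order of level per length (CPM per kb of exon), Hoxb9 led at 6.88, followed by Hoxb6 at 2.31, Hoxb7 at 1.84, Hoxb8 at 1.79, Hoxb5 at 0.781, Hoxa5 at 0.597, Hoxb3 at 0.454, Hoxb4 at 0.447, Hoxa4 at 0.436, Hoxb2 at 0.295, Hoxa3 at 0.254, Hoxa2 at 0.253 and Hoxd4 at 0.0642. The libraries of neighbours in this order overlapped except between Hoxb9 and Hoxb6, between Hoxb8 and Hoxb5, between Hoxa5 and Hoxb3 and between Hoxa2 and Hoxd4. Cluster B took 88.6% to 90.3% of the summed level per length in the 3 libraries, cluster A 8.32% to 10.8% and cluster D 0.543% to 1.15%.

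Hoxb9, a gene of trunk patterning and the last member of cluster B before a long gap, had 597, 576.5 and 477 reads in the 3 Tamoxifen libraries, which is 20.0, 18.8 and 17.1 CPM. It had 1 read over the 3 DMSO libraries and none in nativ. The ratio to DMSO was 1587 (95% counting interval 284 to 62740), and the level was at least 546.96-fold higher than in nativ, with adjusted p in edgeR of 2.84e-08 and 2.74e-08. Like the other Hox members tested in organoids, Hoxb9 passed the low-count filter through the Tamoxifen group alone. The p-values of these members were therefore bound to be low and are a description only. For Hoxb9 the 3 Tamoxifen libraries lay close together and far above the other 6.

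Next to it, Hoxb8 stood at 5.15, 5.89 and 4.83 CPM, with no read in the 6 DMSO and nativ libraries. Hoxb7 stood at 4.51, 4.16 and 3.15 CPM, likewise against no read. For Hoxb6 the Tamoxifen values were 3.36, 4.18 and 3.70 CPM, against 1 read in nativ replicate 3 and none in the other 5 libraries. These central members, which are known from the axial skeleton and from blood progenitors, were at least 150.73-fold, 112.567-fold and 106.47-fold higher than in DMSO, with adjusted p in edgeR of 3.28e-06, 1.09e-05 and 1.24e-06.

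Hoxb5, required for migration of enteric neural crest, stood at 1.70, 1.24 and 1.503 CPM in Tamoxifen organoids, with 3 reads in nativ replicate 2 and none in the other T75 libraries. Hoxb4, a regulator of blood stem cells, stood at 1.20, 1.20 and 1.04 CPM with no read in T75. Hoxb3 stood at 3.96, 4.70 and 3.45 CPM, with 1 read in DMSO replicate 2. No Tamoxifen library overlapped a T75 library for any of the 3 genes. Hoxb5 was at least 42.0-fold higher than in DMSO, Hoxb4 at least 32.7-fold higher, and Hoxb3 had a ratio of 346 (61.8 to 13718), with adjusted p in edgeR of 7.63e-05, 6.74e-05 and 1.84e-06. Hoxb2, a hindbrain patterning gene, was too low for the edgeR filter, at 0.602, 0.342 and 0.680 CPM against no read, which is at least 15.39-fold higher than in DMSO.

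In cluster A, Hoxa3, which patterns the pharyngeal pouches, stood at 2.61, 2.6997 and 2.75 CPM, with no read in T75. Hoxa5, known from lung and gut patterning, stood at 1.10, 1.01 and 1.25 CPM, with 1 read in DMSO replicate 2. Hoxa4 stood at 0.836, 0.488 and 0.684 CPM, with no read in T75. Levels of the 3 libraries were close for Hoxa3 and Hoxa5 and spread wider for Hoxa4. Hoxa3 was at least 76.3-fold and Hoxa4 at least 18.9-fold higher than in DMSO, and Hoxa5 had a ratio of 95.2 (16.7 to 3800), with adjusted p in edgeR of 1.04e-05, 0.000442 and 3.86e-05. Hoxa2, of the hindbrain, was low, at 0.702, 0.358 and 0.286 CPM. From Hoxa6 on the cluster was nearly silent: Hoxa6 had 0, 0 and 2 reads and Hoxa7 0, 1 and 1, and Hoxa9, Hoxa10, Hoxa11 and Hoxa13 had none in the 3 libraries, which allows up to 3 reads each.

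Cluster D gave a trace at its low end, with 6, 3.5 and 5 reads of Hoxd4 and 3, 8 and 0 of Hoxd8. Hoxd13 had 1, 2 and 1 reads, and Hoxb13, the end of cluster B, 1, 3 and 0. In cluster C, Hoxc6 had 1.17, 0 and 3 reads, Hoxc9 had 0, 2 and 0, and the other 7 members had none. Apart from Hoxd4 and Hoxd8, these members stayed within the 0 to 3 reads per library seen in T75.

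Against DMSO, 10 of the 39 members entered the edgeR test and 10 were higher, against a background of 33.9% of the 16449 genes tested. None was lower, where 32.4% of all genes were. Against nativ, 10 members were higher (33.5% of all genes) and none lower (33.5%). These comparisons share the Tamoxifen libraries. Each of the 10 passed the low-count filter through the Tamoxifen group alone and so had to differ, and the counts and p-values are a description. Their fitted log2 differences had a median of 8.80 against DMSO, or 6.495 when each gene without reads in DMSO was put at its bound, where all genes had 0.02. DESeq2, which tested more low genes, called 14 members higher against DMSO (27.7% of its genes) and 14 against nativ (28.3%), among them Hoxa2, Hoxb2 and Hoxd4.

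**Figure D2:**
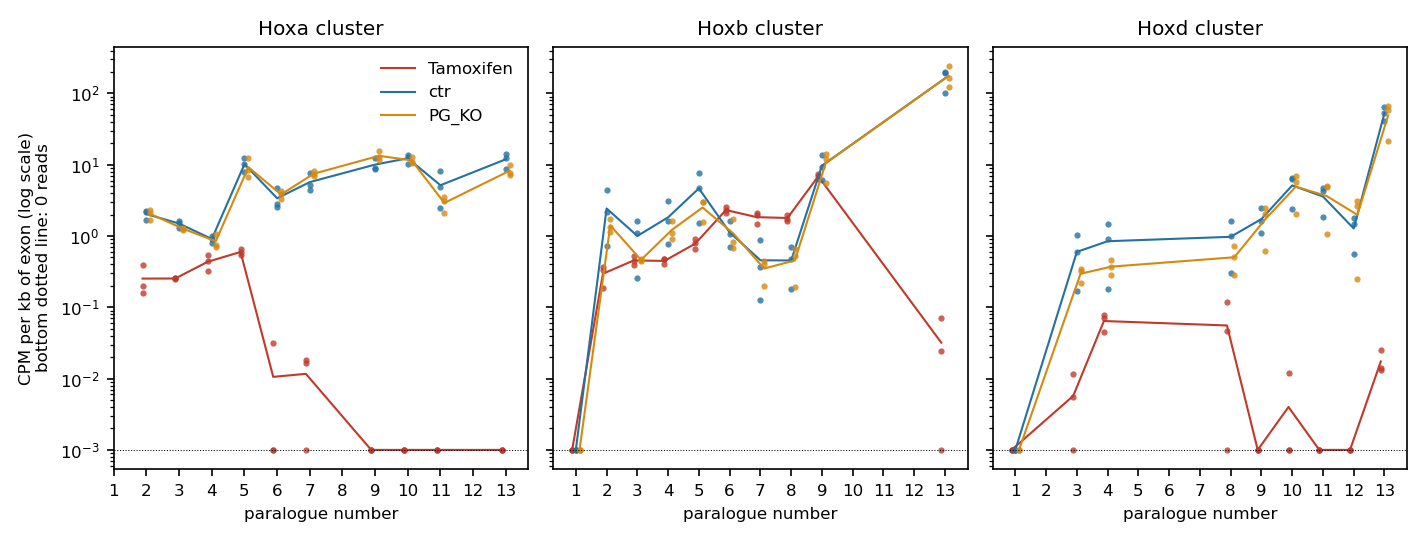
CPM per kb of exon (log scale) against paralogue number in clusters A, B and D, for Tamoxifen organoids and for ctr and PG_KO gut; points are libraries, lines join the means of the members drawn, and the dotted line at the bottom stands for 0 reads. The organoid line drops after Hoxa5 (0.597) and after Hoxb9 (6.88), whereas the gut lines rise to Hoxb13 (163 in ctr and 177 in PG_KO) and Hoxd13 (52.9 and 49.1).

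DMSO and nativ organoids held 36 Hox reads in all over their 6 libraries. The 3 DMSO libraries had 6, 3 and 8, and the 3 nativ libraries 2, 11 and 6. Hoxb13 was the member with the most, 10 reads, and had at least 1 in each of the 6 libraries. Of the other members, 16 had a read somewhere in T75 and 22 had none. No member was called between DMSO and nativ: edgeR called 0 of 16449 genes (a background of 0%) with 2408 genes at an unadjusted p under 0.05, none of them among the 10 Hox members tested, and DESeq2 called 138 genes (0.923%), none of them Hox. At this depth a difference between DMSO and nativ in a Hox gene was not detectable.

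Genes of a list of Hox upstream and ParaHox genes also differed between the organoids. Cdx1, a Hox-related factor of intestinal epithelium, stood at 101, 99.3 and 110 CPM in Tamoxifen organoids, against 1 read in the 3 DMSO libraries and 0.0328 to 0.277 CPM in nativ. Its relative Cdx2, the master regulator of intestinal identity, stood at 326, 326 and 335 CPM, against 15.5 to 17.8 CPM in DMSO and 15.9 to 17.8 in nativ. Pdx1, another gene of the ParaHox family to which Cdx1 and Cdx2 belong and a factor of duodenum and pancreas, ran the other way. It stood at 1.79 to 1.97 CPM against 21.5 to 25.6 in DMSO and 20.9 to 26.8 in nativ. None of these ranges overlapped between Tamoxifen and T75 organoids. Cdx2 was higher by 4.27 ± 0.12 (log2, SE) and Pdx1 fell by 3.70 ± 0.17 against DMSO, with adjusted p in edgeR of 6.07e-10 and 1.73e-08. In all, 3 of the 10 tested genes of the list of upstream and ParaHox genes were higher and 5 lower, where 33.9% of all genes tested were higher and 32.4% lower. Those lower included the retinoic acid receptor genes Rara, Rarb and Rarg. Rarb, itself a retinoic acid target, stood at a mean of 0.0802 CPM against 3.88 in DMSO. Against nativ, 5 of the 10 tested genes of this list were higher and 5 lower, where 33.5% of all genes were higher and 33.5% lower. Cdx1 passed the low-count filter through the Tamoxifen group alone and Rarb through DMSO and nativ alone, so their calls are a description.

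Cofactors of the TALE family, which bind DNA together with Hox proteins, were described by the same counts: 1 of 8 tested was higher than in DMSO and 5 were lower, with a median log2 difference of -0.53, where 33.9% of all genes were higher and 32.4% lower with a median of 0.02. Meis2 fell by 5.43 ± 0.18 (80.2 CPM in DMSO to 1.95) and Meis1 was at 0.0111 CPM against 5.42, with adjusted p in edgeR of 1.70e-09 and 1.76e-08. Meis1, with 1, 0 and 0 reads in Tamoxifen organoids, passed the low-count filter through DMSO and nativ alone. Its p was therefore bound to be low and is a description only. Pbx2 and Pknox1 missed the threshold, with log2 differences of -0.13 and -0.16. Pbx4 was the member that rose against DMSO, by 0.64, and it was not called higher against nativ. Polycomb and trithorax genes, whose products keep Hox clusters silent or active, had 8 of 28 that rose and 8 that fell, with a median of -0.12, and these shares are close to the 33.9% and 32.4% of all genes. Those that rose included Ezh2 (57.5 against 29.9 CPM), the methyltransferase of Polycomb complex PRC2, and Suz12 (154 against 109 CPM). Those that fell included Phc2 (57.1 against 198 CPM) and Cbx7 (31.8 against 76.0 CPM), both of complex PRC1. Neither complex moved as a whole. Mean CPM went the other way in Ezh1 of PRC2 (59.7 against 86.2) and Pcgf6 of PRC1 (29.6 against 15.3).

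Non-coding genes inside the clusters were read beside their Hox neighbours. Gm53, in cluster B, stood at a mean of 1.39 CPM in Tamoxifen organoids with no read in DMSO, and Hotairm1, in cluster A, at 0.630 against 0.0409 CPM. Hottip, beside Hoxa13, had no read in any organoid library and stood at 7.11 ± 3.39 CPM in ctr gut and 4.24 ± 2.52 in PG_KO gut. Hoxa11os, antisense to Hoxa11, stood at 73.2 ± 21.96 and 51.5 ± 19.8 CPM in gut and at 0.0231 CPM in Tamoxifen organoids. Of this list, which also takes in flanking genes, 8 were tested against DMSO, 5 rose and 1 fell, beside 33.9% and 32.4% of all genes. Gm53 and Hotairm1 passed the low-count filter through the Tamoxifen group alone, so their calls are a description.

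Regional marker genes gave a further description of the same organoids. Gata4, a factor of the proximal small intestine, stood at 118, 119 and 125 CPM in Tamoxifen organoids, at 0 to 0.113 CPM in DMSO, at 0 to 0.416 in nativ, at 0.776 to 1.43 in ctr gut and at 0.0684 to 0.198 in PG_KO gut. Its levels in Tamoxifen organoids lay above those of every other group, with no overlap. Against DMSO, 33.9% of all genes tested rose and 32.4% fell. By list, 7 of 10 proximal small intestine genes rose and 1 fell, 9 of 9 distal small intestine genes rose, 8 of 9 colon genes rose and 1 fell, and 0 of 9 foregut, bile duct and pancreas genes rose and 9 fell. These were the genes tested, out of 15 listed for colon and 19 for foregut, bile duct and pancreas. Fabp6, of ileal bile acid handling, stood at 108 CPM against 0.0132, and Fabp1, highest in proximal intestine, at 303 against 0.0109. Spp1 (osteopontin) stood at 0.240 against 2245 CPM and Sox17 at 0.0217 against 33.2 CPM. Fabp6, Fabp1, Lct, Guca2b and Slc26a3, near 0 CPM in DMSO and nativ, passed the low-count filter through the Tamoxifen group alone. Spp1 and Sox17 passed it through DMSO and nativ alone. Such genes had to differ, so the counts by list are a description and do not set these lists apart from all genes. Sox2, of stomach and oesophagus, had no read in any organoid library.

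**Figure D3:**
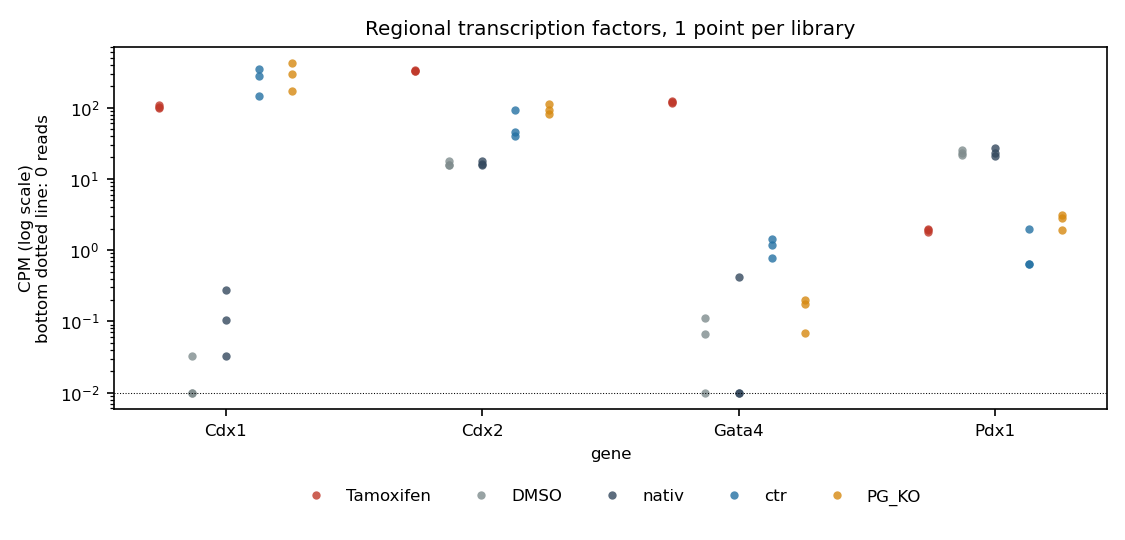
CPM (log scale) of 4 transcription factors of gut regions, 1 point per library, with 0 reads at the dotted line. Cdx1, Cdx2 and Gata4 are higher in Tamoxifen than in DMSO and nativ organoids, Pdx1 is lower, and Gata4 stands near 120 CPM in Tamoxifen organoids and below 1.5 CPM in gut.

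Organoids are epithelial, and the marker lists of other cells were low in them. Epithelial genes summed to 11842 to 12004 CPM in Tamoxifen and 6991 to 8812 in DMSO organoids, and 7 of 10 were higher and 1 lower against DMSO, where 33.9% of all genes were higher and 32.4% lower. Smooth muscle genes summed to 48.7 to 50.5 CPM in Tamoxifen organoids, of which Mylk gave 48.2, and to 3.45 to 4.82 in DMSO, and 2 of 3 tested were higher and 1 lower. Fibroblast genes summed to 1.37 to 1.59 CPM and 0.913 to 1.31 CPM, and 0 of 1 tested was called. Enteric neuron and glia genes summed to at most 11.7 CPM, endothelial genes to at most 12.3 and immune genes to at most 95.8 in these groups. Of their 5, 3 and 2 tested genes, 2, 2 and 1 were higher and 1 was lower in each list. Most of the immune sum was Cd68, with a mean of 82.9 CPM in DMSO and 92.7 in nativ, where the sum reached 103 CPM.

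Gut tissue had a Hox profile dominated by paralogue 13. Paralogue 13 genes took 60.2% to 77.7% of the summed Hox level per length in ctr and 68.8% to 76.4% in PG_KO, against 0.0902% to 0.568% in Tamoxifen organoids. By paralogue class, genes 9 to 13 took 80.3% to 91.0% in ctr gut, 85.1% to 90.9% in PG_KO gut and 41.1% to 42.5% in Tamoxifen organoids. In these organoids the class was nearly all Hoxb9, with a mean of 18.6 of its 18.7 CPM. Genes 4 to 8 took 7.39% to 15.2% in ctr gut, 7.69% to 12.3% in PG_KO gut and 48.9% to 51.0% in Tamoxifen organoids. Clusters A, B and D all contributed: in ctr gut they took 17.9% to 25.3%, 50.6% to 63.8% and 17.5% to 23.9%.

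In order of level per length in ctr gut, Hoxb13 stood at 163 CPM per kb, Hoxd13 at 52.9, Hoxa10 at 12.3, Hoxa13 at 11.9, Hoxa5 at 10.2, Hoxa9 at 10.05, Hoxb9 at 9.71, Hoxa7 at 5.70, Hoxa11 at 5.15 and Hoxd10 at 5.12. Hoxb13 and Hoxd13 stood apart from their neighbours in this order, and the libraries of all later neighbours among these overlapped. In PG_KO gut the same first pair stood at 177 and 49.1, followed by Hoxa9 at 13.3, Hoxa10 at 11.499, Hoxb9 at 10.5, Hoxa5 at 9.25 and Hoxa13 at 8.23.

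Among the paralogue 13 genes, which pattern the hindgut, limb and genital tract, Hoxb13 stood at 138, 261 and 270 CPM in ctr and at 168, 227 and 330 CPM in PG_KO. Hoxd13 stood at 106, 167 and 135 CPM and at 56.1, 152 and 171 CPM. Hoxa13 stood at 11.46, 18.8 and 16.5 CPM and at 9.30, 9.94 and 13.1 CPM. In all 3 genes the groups overlapped. The log2 differences, PG_KO over ctr, were 0.11 ± 0.34 (SE), -0.12 ± 0.39 and -0.53 ± 0.27, with adjusted p in edgeR of 0.880, 0.886 and 0.366, the last being the lowest among the members.

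The other posterior members of cluster D varied widely within groups. Hoxd12, with Hoxd13 a gene of the anal sphincter and limb, stood at 3.80, 4.48 and 1.42 CPM in ctr and 0.634, 6.61 and 7.83 CPM in PG_KO. Hoxd11 stood at 17.8, 19.6 and 7.88 CPM and at 4.47, 20.4 and 21.1 CPM. Hoxd10 stood at 17.7, 18.4 and 6.77 CPM and at 5.67, 16.0 and 19.6 CPM. These genes share the low libraries, ctr replicate 3 and PG_KO replicate 1, as did Hoxd9 at 5.17, 3.41 and 2.33 CPM in ctr and 1.30, 4.28 and 5.20 CPM in PG_KO. Their log2 differences ran from -0.05 to 0.63, and without PG_KO replicate 1 that of Hoxd12 was 1.16 (adjusted p in edgeR 0.449) against 0.63 with it (0.695).

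Among the posterior cluster A genes, Hoxa9 and Hoxa10 spread less within groups, relative to their means, than Hoxa11. Hoxa9 stood at 27.7, 28.9 and 40.7 CPM in ctr and 41.0, 37.2 and 51.0 CPM in PG_KO. Hoxa10, known from the uterus, stood at 40.6, 42.9 and 32.5 CPM and at 33.7, 34.0 and 40.7 CPM. Hoxa11, likewise of the uterus, stood at 18.8, 11.04 and 5.58 CPM and at 7.19, 8.04 and 4.75 CPM. The groups overlapped in each. The log2 differences were 0.42 ± 0.22, -0.08 ± 0.15 and -0.79 ± 0.45. Without ctr replicate 1, which held the highest Hoxa11 level, that difference was -0.33. Hoxb9 stood at 16.4, 24.7 and 37.5 CPM and at 14.99, 37.9 and 32.0 CPM. Its 17.1 to 20.0 CPM in Tamoxifen organoids lay between the lowest and the highest gut libraries, and no gut library fell inside that range. The means were 26.2 CPM in ctr and 28.3 in PG_KO gut, against 18.6 in Tamoxifen organoids.

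The lower and middle members of cluster A, Hoxa2 to Hoxa7, overlapped between the gut groups. Hoxa5 stood at 23.5, 18.9 and 14.99 CPM in ctr and 16.0, 12.6 and 23.5 CPM in PG_KO. Hoxa6 stood at 6.36, 5.78 and 10.7 CPM and at 8.65, 7.57 and 9.64 CPM. Hoxa7 stood at 8.59, 10.05 and 14.8 CPM and at 14.6, 15.8 and 13.4 CPM. Hoxa6 and Hoxa7, at 0 to 2 reads in Tamoxifen organoids, were thus well above the floor in all 6 gut libraries. Hoxa4 stood at 1.40, 1.55 and 1.23 CPM and at 1.09, 1.62 and 1.16 CPM. Hoxa3 stood at 17.3, 13.9 and 16.4 CPM and at 13.4, 12.9 and 13.9 CPM. Hoxa2 ran from 2.96 to 4.16 CPM over both groups. All log2 differences of Hoxa2 to Hoxa7 lay between -0.22 and 0.39.

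Hoxb6, Hoxb7 and Hoxb8, prominent in Tamoxifen organoids, were low in gut. Hoxb8 stood at 2.06, 1.42 and 0.535 CPM in ctr and 0.564, 1.54 and 1.91 CPM in PG_KO, against 4.83 to 5.89 CPM in Tamoxifen organoids. Hoxb7 stood at 1.90, 0.776 and 0.268 CPM and at 0.423, 0.871 and 0.957 CPM, against 3.15 to 4.51. Hoxb6 stood at 2.61, 1.70 and 1.15 CPM and at 1.09, 1.35 and 2.84 CPM, against 3.36 to 4.18. For each gene the 3 organoid libraries lay above all 6 gut libraries, a difference across separate tables that was not tested. The gut log2 differences were 0.01 ± 0.61, -0.37 ± 0.69 and -0.04 ± 0.49.

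The low end of clusters B and D was highest in ctr replicate 1. Hoxb3 stood at 14.6, 9.81 and 2.26 CPM in ctr and 4.12, 4.24 and 3.96 CPM in PG_KO. Hoxb5 stood at 14.6, 8.97 and 2.91 CPM and at 5.60, 3.01 and 5.67 CPM. Hoxb4 stood at 7.91, 4.18 and 1.99 CPM and at 4.19, 2.34 and 2.84 CPM. In each, ctr replicate 1 was the highest and ctr replicate 3 the lowest of the 6 libraries. Hoxb2 stood at 8.09, 3.97 and 1.31 CPM and at 3.21, 2.45 and 2.07 CPM. The same order within ctr held in cluster D: Hoxd4 stood at 3.72, 2.31 and 0.459 CPM and at 0.934, 1.19 and 0.735 CPM. Hoxd3 stood at 2.97, 1.75 and 0.497 CPM and at 0.934, 0.633 and 1.01 CPM, and Hoxd8 at 3.51, 2.16 and 0.650 CPM and at 1.10, 1.54 and 0.615 CPM. PG_KO libraries lay inside the wide ctr range, except in Hoxd8, where PG_KO replicate 3 was below it.

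Log2 differences of these 7 members ran from -1.15 ± 0.69 (Hoxd4, adjusted p in edgeR 0.412) and -1.08 ± 0.60 (Hoxb3, 0.385) to -0.54 ± 0.53 (Hoxb4). Without ctr replicate 1 they were -0.55 for Hoxd4 and -0.56 for Hoxb3. Without ctr replicate 3, Hoxb3 was called lower (-1.499, adjusted p in edgeR 0.039), and edgeR then called 1478 genes of the whole table in place of 0. Smooth muscle markers had the same order of libraries within ctr. The 10 of 10 listed genes, none of them at 0 in either group, summed to 5110, 3948 and 817 CPM in ctr and 802, 1088 and 1379 CPM in PG_KO, with a median log2 difference of -1.52. Within PG_KO this sum rose from replicate 1 to replicate 3, where Hoxb3 stood at 4.12, 4.24 and 3.96 CPM, so the likeness did not extend to PG_KO. Fibroblast genes (12 of 12) summed to 4128, 2371 and 1005 CPM and to 1495, 1515 and 699 CPM, with a median of -0.998. Neuron and glia, endothelial and immune lists, with no gene at 0 either, had medians of -0.90, -1.32 and -1.504, and epithelium of 0.24. The part of these cells in the Hox values was not tested.

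**Figure D4:**
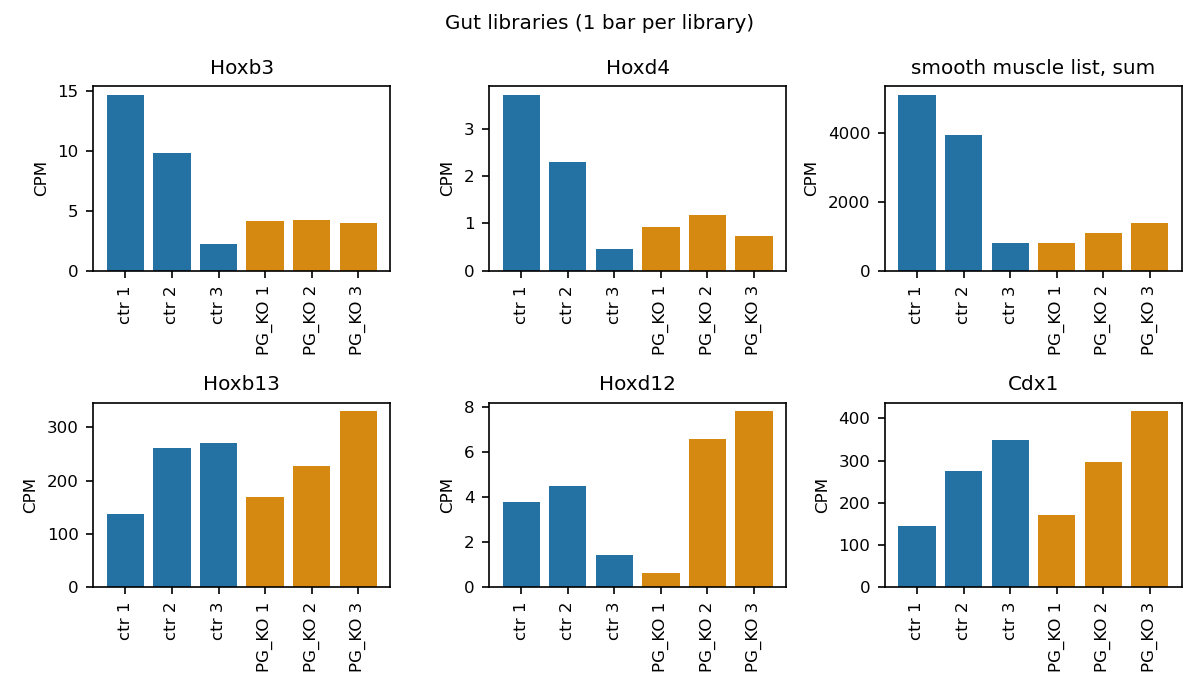
CPM in each gut library (1 bar each) of Hoxb3 and Hoxd4, of the sum of 10 smooth muscle genes, and of Hoxb13, Hoxd12 and Cdx1. Hoxb3, Hoxd4 and smooth muscle genes are highest in ctr replicate 1 and next in ctr replicate 2, whereas Hoxb13 and Cdx1 are lowest in ctr replicate 1 and PG_KO replicate 1.

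Cluster C was close to silent in gut. Hoxc4 stood at 0.967, 0.431 and 0.229 CPM in ctr and 0.599, 0.277 and 0.308 CPM in PG_KO, and Hoxc5 had 0.286 CPM in ctr replicate 1. The other members of the cluster had at most 0.0705 CPM in a gut library.

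Between PG_KO and ctr, 29 members entered the edgeR test and none was called higher or lower, where edgeR called 0% of 18043 genes in either direction. At an unadjusted p under 0.05 edgeR had 2705 genes, none of them Hox, and DESeq2 called 0.344% of 18291 genes higher and 2.03% lower, none of them Hox. The median log2 difference of the 29 members was -0.10, against -0.03 over all genes. CPM ranges of the groups overlapped for all 29, where 18.6% of the tested genes had ranges that did not overlap. The test had little reach here, since edgeR found 10% of simulated log2 differences of 1, and 62% of those of 2, in counts with this spread.

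**Figure D5:**
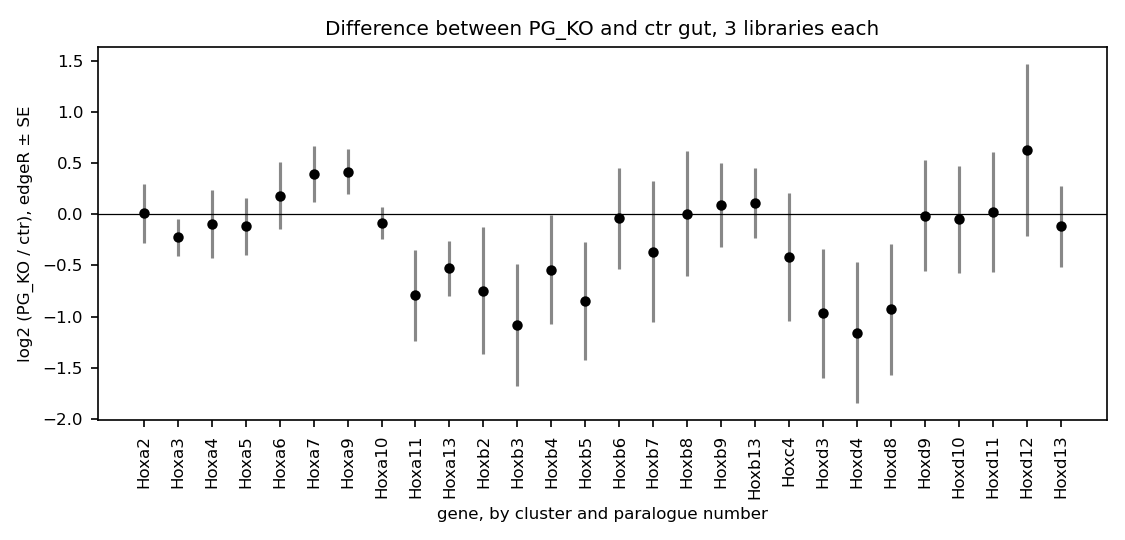
Log2 difference between PG_KO and ctr gut (edgeR, ± SE, 3 libraries each) for 28 of the 29 members tested, by cluster and paralogue number. None passed the threshold; the lowest values are those of Hoxd4 (-1.15) and Hoxb3 (-1.08) and the highest that of Hoxd12 (0.63).

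Upstream genes and cofactors gave no call in edgeR in gut either, where edgeR called 0 of all 18043 genes tested. Such counts could therefore not set these lists apart. Cdx1 stood at 146, 275 and 349 CPM in ctr and 170, 297 and 417 CPM in PG_KO. Cdx2 stood at 40.4, 45.7 and 92.7 CPM and at 112, 80.4 and 93.7 CPM, a log2 difference of 0.69 ± 0.36 (adjusted p in edgeR 0.375). Within each group Cdx1 ranked the libraries as Hoxb13 did, from lowest in replicate 1 to highest in replicate 3. The labels do not state that replicate numbers pair libraries across the groups. Meis1 stood at 25.8, 16.1 and 3.94 CPM in ctr and 5.74, 4.95 and 6.39 CPM in PG_KO (-1.38 ± 0.60), so that ctr replicates 1 and 2 were the highest of the 6 libraries and ctr replicate 3 the lowest. Meis3 stood at 22.6, 12.03 and 7.69 CPM and at 7.12, 4.91 and 5.54 CPM (-1.23 ± 0.41). The summed smooth muscle genes were likewise highest in ctr replicates 1 and 2, and their part in these values was not tested. None of the 9 TALE genes, 11 upstream genes, 28 Polycomb and trithorax genes or 18 cluster non-coding and flanking genes tested was called in edgeR. Their median log2 differences were -0.47, -0.29, 0.09 and -0.04. No regional gene was called in edgeR in the lists of colon (15 tested), distal (8) and proximal small intestine (7) and foregut, bile duct and pancreas (6). The medians of these lists were -0.80, -0.40, -0.34 and 0.19. Car4, a carbonic anhydrase of colon surface cells, had the smallest p of the colon list, with means of 943 CPM in ctr and 59.4 in PG_KO (-3.97 ± 0.42, adjusted p in edgeR 0.181).

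Members that overlap other genes are less certain. By the deposited coordinates 20 of the 39 members overlap another gene, 11 of them on the same strand, and the strand setting of the counting is not given. Hoxa3 spans Hoxa4, Hoxa5 and Hoxa6, Hoxb3 spans Hoxb4, Hoxd3 overlaps Hoxd4, and Hoxd10 overlaps Hoxd11, so that reads may have been shared within these sets. Hoxa11 overlaps the antisense Hoxa11os, and Hoxb5 and Hoxb6 overlap Hoxb5os. Hoxb7, Hoxb8, Hoxb9, Hoxb13, Hoxa7, Hoxa9, Hoxa13, Hoxd12 and Hoxd13 overlap no listed gene.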

How the data were processed

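Poly(A) RNA of 9 organoid and 6 gut libraries was sequenced. Per the submitters' processing notes the tools were STAR 2.7.2b, featureCounts 1.6.4 (Subread), cutadapt 2.5, bcl2fastq 2.20.0.422 and DESeq2, with the build GRCm38.p6; strand setting and read filters are not given in the sources used here. The authors deposited expected counts, that is reads per gene with 10.4% to 13.7% of a library's values not whole, so some reads were divided between genes, and these were rounded before model fits. Groups were taken from the sample descriptions. Coordinates of the 39 members matched RefSeq's GRCm38.p6 for 39 of 39. CPM use library totals, and CPM per kb use the deposited exon length.

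The Hox members, the other gene lists and the comparisons were chosen with earlier results of these data known. One edgeR 4.0.16 fit (R 4.3.3) of the 9 organoid libraries and another of the 6 gut libraries used TMM factors, filterByExpr by group, robust quasi-likelihood F tests and Benjamini-Hochberg adjustment over all genes tested, at a threshold of 0.05. A gene near 0 reads on one side of a comparison could pass the filter through the other side alone, and its call is then a description. The standard error of a log2 change is its size over the square root of F. A fold against 0 reads is a lower bound against 3 reads over the group, and with 1 to 3 reads a ratio with its 95% counting interval is given. Members that were called or whose mean reached 1 CPM in any group are given by library. Of the other lists, the 3 genes with the smallest p in a comparison could be named, besides Cdx1, Cdx2, Gata4, Sox2, Pdx1 and Jup. Some genes covered by these rules are not reported here. Rara, Rarb, Rarg, Ezh1, Ezh2, Suz12, Pcgf6, Pbx2, Pbx4, Pknox1, Hottip and Hoxa11os were chosen after their values were seen.

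Alternatives were DESeq2 1.42.0, RLE factors, library totals, no filter, at least 1 CPM in 3 libraries, a replicate block, only the 6 libraries compared, and leaving out each library. Leaving out ctr replicate 1 with PG_KO replicate 3 was added after the data were seen. The fits were tested on simulated counts. Python 3.11.15 and matplotlib 3.10.9 made the figures.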

Additional observations from a re-analysis of the deposited data

How the results depend on the processing

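Every alternative kept all calls of the organoid comparisons in direction. Hox members higher in Tamoxifen than in DMSO organoids numbered 9 with a minimum of 1 CPM in 3 libraries (fewer genes tested) and 14 with DESeq2 or with no filter, against 10, and against nativ they numbered 9 to 15. None was lower under any alternative. Leaving out 1 library gave 10 to 12 higher in both. Between DMSO and nativ no member was called under any alternative; with only the 6 libraries compared, no member entered the test.

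In gut no member was called under any alternative but one: without ctr replicate 3, 1 member, Hoxb3, was lower (log2 -1.499, adjusted p in edgeR 0.039), so that leaving out 1 library gave 0 to 1 lower. The cause was not tested. All genes called in gut numbered 0 in edgeR, 435 in DESeq2, 5 with no filter and 1478 without ctr replicate 3. Between DMSO and nativ they numbered 0, 138, 2 with no filter and 1 without nativ replicate 1. Library totals in place of TMM factors moved the median log2 of all genes from 0.01 to 0.13 against nativ.

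The labels do not state that replicate numbers pair the samples. Correlations of deviations ran from -0.18 to 0.29 for same-numbered libraries and from -0.31 to 0.21 for the others. Each comparison has 3 same-numbered pairs, too few to exclude a pairing. With the replicate block 10 members were higher against DMSO and 10 against nativ, and 0 were called between DMSO and nativ or in gut.

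Depth limits members near 3 reads, which includes every Hox value of DMSO and nativ organoids, cluster C, and cluster A from Hoxa6 on in Tamoxifen organoids.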
